A study of Mus musculus with 11 samples.

Results

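Haemoglobin and erythroid genes were followed in orthotopic pancreatic tumors grown in hosts with or without PKN2, a serine/threonine kinase. The 9 genes were 4 adult globin genes (Hbb-bs, Hbb-bt, Hba-a1 and Hba-a2) and 5 genes of the erythroblast (Alas2, Slc4a1, Klf1, Ermap and Epor), out of 54232 genes in the count matrix. They were selected on measured values, because erythroid genes had been seen higher in KO than in WT tumors, so the differences between genotypes are given below as a description of these 9 genes. Counts of them past a threshold are set beside the share of all genes and are not read as evidence.

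Bulk RNA was sequenced from 11 tumors, with 6 from KO hosts (KO A to F) and 5 from WT hosts (WT A to E). All hosts were female C57BL/6 mice of 24 to 28 weeks at the start, carried 1 copy of RosaCreERT2 and were given tamoxifen, and their Pkn2 alleles were fl/fl in the KO group and +/+ in the WT group. Each pancreas received 1000 TB32048 cells, a carcinoma line from a female KPC mouse in which Pkn2 was intact. The recombinase was driven from the Rosa26 locus and so was not limited to fibroblasts or stellate cells, and host blood and marrow cells carried the same alleles.

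Total counts were 22791627 to 28017673 in the KO libraries and 16294128 to 31121422 in the WT libraries. WT A, WT B and WT C stood apart, with 1.31, 6.39 and 1.40% of their counts in ribosomal RNA genes, against 0.241 to 0.765% in the other 8 libraries. KO E, WT A and WT E held acinar enzyme transcripts, with summed levels of 589, 153 and 1645 CPM (counts scaled to a library of 1000000 after TMM scaling) over 6 acinar genes and at most 12.9 CPM in the other tumors. Pkn2 itself lay at 80.0 to 108 CPM in KO and 62.8 to 138 CPM in WT tumors, and since the implanted cells kept the gene it could not check the labels. No library repeated another, and nothing in the labels gave a batch.

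Red cells are made in adult mice in bone marrow and in the red pulp of the spleen. Erythropoietin binds its receptor Epor on erythroid progenitors and signals through Jak2 and Stat5, while the transcription factors Gata1 and Klf1 switch on the genes for globin, haem synthesis and the red cell membrane. Erythroblasts then lose their nucleus, and the reticulocytes that enter the blood still carry globin mRNA. Globin transcripts in a tumor can therefore come from blood in its vessels. Transcripts of membrane proteins and transcription factors are most abundant in nucleated precursors. Which of these transcripts also reach the blood in reticulocytes was not tested, so their levels alone do not separate blood from precursors.

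The promoters of 5 of the genes are shown to place the GATA and CACCC letters that erythroid promoters are known for. They were taken from RefSeq on GRCm38.p6 as the 250 bases before the annotated start of each gene, read 5′ to 3′ on the gene's strand. Capitals mark the GATA letters, which are AGATAA with the variants AGATAG or, with T first, TGATAA with its variant TGATAG, together with the CACCC letters CCACCC, all on either strand, with no overlap between the motif kinds in these promoters. The globin promoters lie at chr7:103827929-103828178 on the minus strand for Hbb-bs and chr11:32283422-32283671 on the plus strand for Hba-a1. Alas2 is at chrX:150547167-150547416 on the plus strand, Ermap at chr4:119189996-119190245 on the minus strand and Epor at chr9:21963577-21963826 on the minus strand.
Hbb-bs: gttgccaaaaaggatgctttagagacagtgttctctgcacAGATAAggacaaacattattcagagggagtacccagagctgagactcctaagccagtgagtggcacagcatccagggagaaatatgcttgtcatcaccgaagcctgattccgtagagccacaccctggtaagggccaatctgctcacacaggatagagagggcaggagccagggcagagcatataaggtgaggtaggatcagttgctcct
Hba-a1: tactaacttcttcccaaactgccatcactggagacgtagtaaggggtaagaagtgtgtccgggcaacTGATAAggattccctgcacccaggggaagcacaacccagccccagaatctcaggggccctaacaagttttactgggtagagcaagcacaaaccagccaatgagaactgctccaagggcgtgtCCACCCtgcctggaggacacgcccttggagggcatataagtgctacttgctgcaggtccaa
Alas2: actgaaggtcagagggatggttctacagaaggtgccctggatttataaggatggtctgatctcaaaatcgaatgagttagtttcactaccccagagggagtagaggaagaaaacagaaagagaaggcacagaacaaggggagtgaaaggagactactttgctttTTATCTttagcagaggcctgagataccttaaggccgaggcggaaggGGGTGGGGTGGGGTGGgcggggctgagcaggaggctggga
Ermap: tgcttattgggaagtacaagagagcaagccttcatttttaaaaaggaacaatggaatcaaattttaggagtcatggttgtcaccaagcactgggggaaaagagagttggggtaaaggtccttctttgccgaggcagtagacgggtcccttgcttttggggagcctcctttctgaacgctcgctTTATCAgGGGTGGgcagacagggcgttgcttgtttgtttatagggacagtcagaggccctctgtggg
Epor: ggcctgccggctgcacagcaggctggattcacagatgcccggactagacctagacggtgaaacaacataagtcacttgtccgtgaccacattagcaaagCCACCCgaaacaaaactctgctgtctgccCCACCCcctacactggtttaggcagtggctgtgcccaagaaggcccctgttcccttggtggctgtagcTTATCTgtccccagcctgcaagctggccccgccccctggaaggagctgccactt

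Across the 300-base windows (250 bases before to 50 after the start) that the reference gave for 8 of the 9 genes, a GATA match was present in 7, in all but Hbb-bt. The same letters were present in 29.8% of 32851 promoter windows of that length. A CCACCC match was present in 7 of the 8, in all but Hbb-bs, and in 31.5% of all windows. Only CCACCC was searched. The shorter letters CACCC also stand, unmarked, in the printed Hbb-bs and Hba-a1 promoters. The first GATA base stood at position -54 in Epor, -67 in Ermap, -80 in Klf1 and -86 in Alas2, and farther out, at -183 in Hba-a1, -186 in Hba-a2 and -210 in Hbb-bs. TATAAA on the gene's strand was found in Hbb-bt and in 8.32% of all windows. The Hba-a1 and Hba-a2 windows shared an unbroken run of 297 bases. These matches describe letters and were not tested as binding sites.

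The globin genes were higher on average in KO tumors, but their ranges overlapped with those of WT tumors. Hbb-bs, an adult beta chain (chromosome 7, 103826534 to 103828096, minus strand), stood at 46.0, 30.2, 37.0, 31.5, 63.0 and 38.3 CPM in KO A to F and at 18.2, 32.7, 46.5, 4.66 and 7.80 CPM in WT A to E. WT B and WT C reached the KO range, and WT D and WT E lay far under it. The mean was 41.0 ± 12.2 CPM in KO (SD, n = 6) and 22.0 ± 17.6 CPM in WT (SD, n = 5), a log2 fold change of 0.90 ± 0.48 (SE). Hbb-bt, the second adult beta chain (chromosome 7, 103812524 to 103813996, minus strand), measured 9.31, 6.32, 8.62, 5.85, 15.2 and 7.37 CPM in KO A to F and 4.59, 7.83, 7.56, 0.783 and 2.18 CPM in WT A to E. The log2 fold change was 0.95 ± 0.49 (SE), and again WT B and WT C lay within the KO range. In bulk RNA, fewer cells of a type and less RNA per cell cannot be told apart, which holds for every gene below.

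The alpha chains also overlapped between the genotypes, with KO E and WT C as the highest tumors and WT D as the lowest. Hba-a1 (chromosome 11, 32283511 to 32284465, plus strand) was at 21.7, 12.5, 18.0, 14.4, 36.5 and 15.7 CPM in KO A to F and at 7.06, 17.0, 30.6, 2.31 and 5.12 CPM in WT A to E, with a log2 fold change of 0.68 ± 0.54 (SE). For Hba-a2 (chromosome 11, 32296489 to 32297298, plus strand) the KO values were 9.27, 5.12, 7.02, 4.47, 11.8 and 5.51 CPM and the WT values 4.64, 6.08, 13.8, 1.13 and 1.18 CPM, with a log2 fold change of 0.43 ± 0.57 (SE). WT C held the highest Hba-a2 level of all 11 tumors. The 4 genes summed to 54.1 to 126 CPM in KO tumors and 8.88 to 98.5 CPM in WT tumors, equal to 0.00569 to 0.0135% of all counts in KO and 0.000957 to 0.00923% in WT.

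Globin counts carry a known limit of counting, since only uniquely aligned reads were kept and the paired genes are nearly alike. Of all 100-base windows in the Hba-a1 transcript 56.5% occur unchanged in Hba-a2, and 74.5% of those in Hba-a2 occur in Hba-a1. Between the beta genes the share was 62.6% for Hbb-bs and 54.8% for Hbb-bt. The untrimmed reads were paired and longer than these windows, so the shares can overstate the reads lost. The level of each globin gene and its split between partners are therefore uncertain, while the comparison of tumors rests on the same countable bases in each. The ratio of alpha to beta counts was 0.464 to 0.617 in KO tumors and 0.514 to 0.821 in WT tumors, and Hbb-bt made up 15.7 to 19.5% of beta counts in KO and 14.0 to 21.8% in WT.

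The globin difference depended on which WT tumors were included. Without WT A, WT B and WT C, the libraries rich in ribosomal RNA, the median log2 fold change of the 4 globins was 2.60 in place of 0.79, and without WT C alone it was 1.28. With those 3 left out, all 4 globins lay above both remaining WT tumors. In that setting 9.08% of all tested genes had KO ranges above WT. Without KO E, WT A and WT E, the tumors with acinar transcripts, the median was 0.19, and the log2 fold changes of Hba-a1 and Hba-a2 were -0.01 and -0.15.

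**Figure D1:**
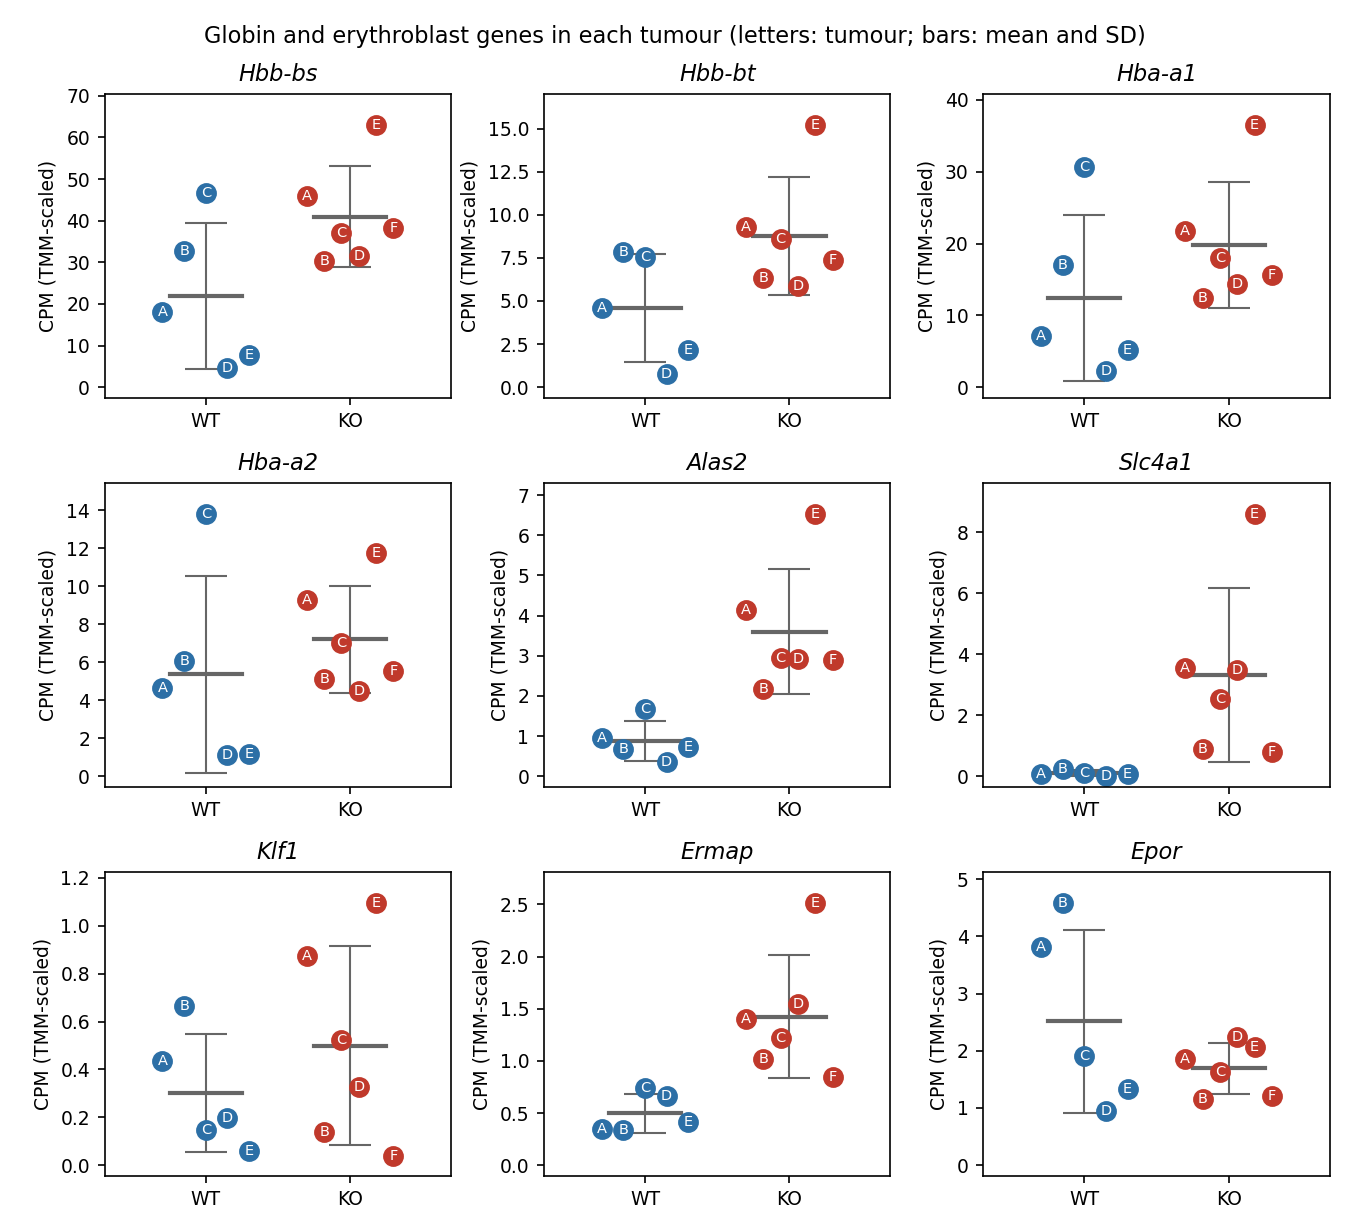
CPM of each of the 9 genes (vertical axes, linear) in WT tumors (blue) and KO tumors (red), with 1 lettered point for each tumor, the group mean as a line and the SD as a bar. The KO points lie above all WT points for Alas2, Slc4a1 and Ermap, whereas WT B and WT C reach the KO range for the globins.

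Among the erythroblast genes, Alas2, Slc4a1 and Ermap were higher in each KO tumor than in any WT tumor. Slc4a1, which encodes band 3, the anion exchanger and main membrane protein of the red cell (chromosome 11, 102348824 to 102366203, minus strand), was at 3.53, 0.877, 2.54, 3.49, 8.60 and 0.805 CPM in KO A to F. In WT A to E it was at 0.0867, 0.250, 0.0982, 0 and 0.0589 CPM, with 0 counts in WT D, which allows up to 0.117 CPM at 3 counts. These levels rest on 101, 25, 73, 86, 212 and 20 counts in KO A to F and on 2, 3, 2, 0 and 2 counts in WT A to E. The log2 fold change was 5.21 ± 0.83 (SE), and the ratio of pooled counts per scaled library was 41.3, with an exact 95% interval of 21.6 to 90.8 that covers counting error only. KO E lay far above the other KO tumors, and KO B and KO F were nearest to the WT range. Without KO E the log2 fold change was 4.66.

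Alas2, the erythroid enzyme for the first step of haem synthesis (chromosome X, 150547375 to 150570638, plus strand), measured 4.13, 2.18, 2.95, 2.92, 6.53 and 2.90 CPM in KO A to F. The WT values were 0.953, 0.667, 1.67, 0.352 and 0.736 CPM. The lowest KO tumor, KO B, was above the highest WT tumor, WT C, and the log2 fold change was 2.03 ± 0.42 (SE) between means of 3.60 ± 1.57 (SD, n = 6) and 0.875 ± 0.493 CPM (SD, n = 5). Ermap, the erythroblast membrane-associated protein (chromosome 4, 119175457 to 119190011, minus strand), was at 1.40, 1.02, 1.22, 1.54, 2.51 and 0.845 CPM in KO A to F and at 0.347, 0.333, 0.736, 0.665 and 0.412 CPM in WT A to E. Its log2 fold change was 1.49 ± 0.38 (SE), and KO F was just above WT C.

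Klf1 and Epor did not separate the genotypes. Klf1, an erythroid transcription factor (chromosome 8, 84901928 to 84905291, plus strand), was at 0.875, 0.140, 0.521, 0.325, 1.10 and 0.0403 CPM in KO A to F and at 0.433, 0.667, 0.147, 0.196 and 0.0589 CPM in WT A to E. Its 80 KO and 28 WT counts were too few to pass the filter on low counts, and KO F held the lowest level of all. Epor, the erythropoietin receptor (chromosome 9, 21958897 to 21963506, minus strand), was at 1.85, 1.16, 1.63, 2.23, 2.07 and 1.21 CPM in KO A to F and at 3.81, 4.58, 1.91, 0.939 and 1.32 CPM in WT A to E. WT A and WT B were the highest tumors for Epor, and the log2 fold change was -0.56 ± 0.41 (SE). Without WT A, WT B and WT C it was 0.58, of opposite sign, and with the share of ribosomal RNA as a covariate it was -0.04.

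Per kilobase of exon, the KO means fell in the order Hbb-bs 53.4, Hba-a1 24.4, Hbb-bt 12.5, Hba-a2 10.8, Alas2 1.50, Epor 0.851, Slc4a1 0.676, Klf1 0.326 and Ermap 0.269 RPKM (reads per kilobase at a library of 1000000). In WT tumors Hbb-bs was at 28.6, Hba-a1 at 15.3, Hba-a2 at 8.04 and Hbb-bt at 6.53 on the same scale. Epor followed at 1.26, Alas2 at 0.364, Klf1 at 0.196, Ermap at 0.0942 and Slc4a1 at 0.0202. Band 3 was thus the lowest of the 9 genes in WT tumors and the seventh in KO tumors.

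Of the 9 genes 8 could be tested in the fit over 16536 genes, and the counts below were fixed in part by how the genes were chosen. At an adjusted p under 0.05 (edgeR quasi-likelihood test, Benjamini-Hochberg), 0 of the 8 were higher in KO, where 0.0181% of all tested genes were. An unadjusted p under 0.05 was reached by 3, all higher in KO, beside 8.57% of all genes higher and 15.5% lower. In the DESeq2 fit 3 were higher at an adjusted p under 0.05, beside 3.19% of all genes. The KO range lay above the WT range for 3, beside 1.59% of all genes. The median log2 fold change was 0.79 over the 4 globins and 1.76 over the 4 erythroblast genes tested, beside -0.03 over all tested genes.

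The globins and the erythroblast genes were set against each other in each tumor. Summed globin CPM was 14.7 to 83.0 times the Slc4a1 CPM in KO tumors and 254 to 1004 times in the 4 WT tumors with Slc4a1 counts. Each of those WT ratios rests on 2 or 3 counts of Slc4a1, and WT D had 0. The contrast also carries the Slc4a1 difference between genotypes, on which the genes were selected. WT C showed the contrast most, with 98.5 CPM of globin and 2 counts of Slc4a1. Against Alas2 the globin ratio was narrow in KO tumors, at 19.2 to 24.9, and was 22.1 to 95.4 in WT tumors, with WT D and WT E at 25.2 and 22.1. The log2 ratio of globin to all 5 erythroblast genes was 2.96 ± 0.42 in KO (SD, n = 6) and 3.01 ± 0.91 in WT (SD, n = 5). That difference of -0.05 was far smaller than the spread, and Epor made up 3.81 of 5.63 CPM of the erythroblast sum in WT A and 4.58 of 6.50 CPM in WT B.

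**Figure D2:**
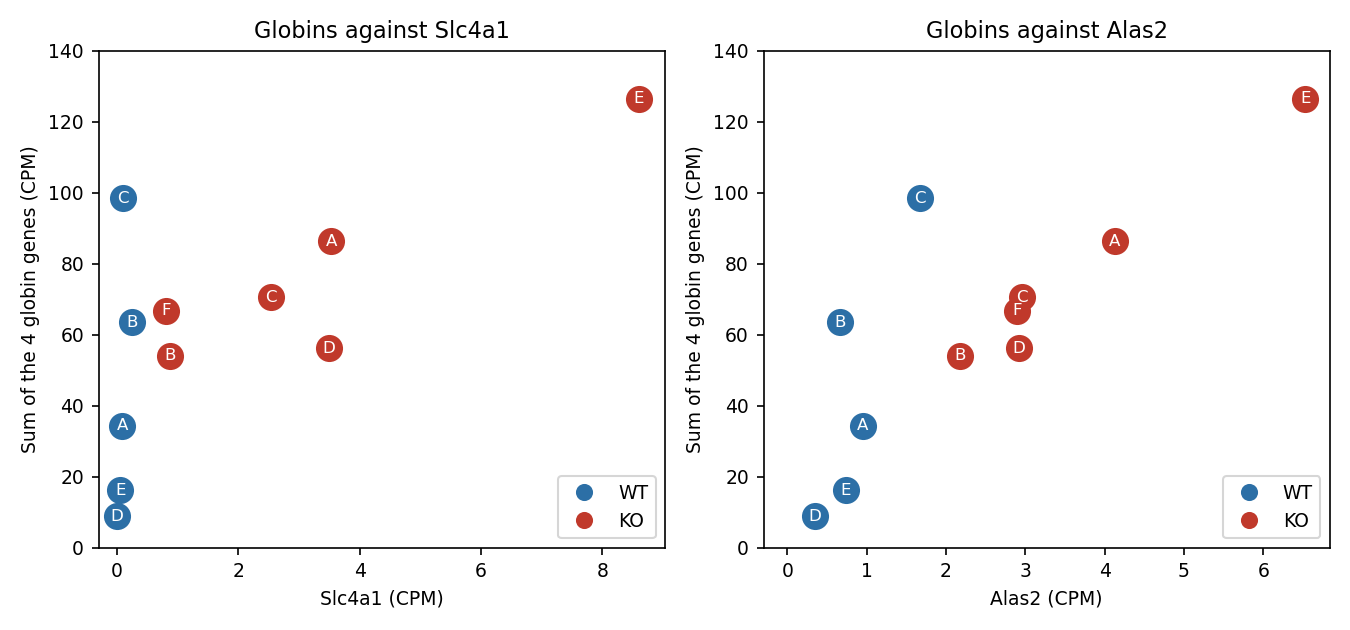
Sum of the 4 globin genes (vertical axis, CPM) against Slc4a1 (left) and Alas2 (right, CPM), with 1 lettered point for each WT (blue) or KO (red) tumor. WT tumors span 8.88 to 98.5 CPM of globin with Slc4a1 at 0.250 CPM or less, while the KO tumors spread along both axes with KO E at the top.

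Tumor to tumor differences among the KO hosts, which the choice of genes did not use, were tested by exact permutation of pairings (two-sided, 720 pairings, n = 6 tumors, 14 relations adjusted together by Benjamini-Hochberg). The globins varied together. Hbb-bs correlated with Hba-a1 at r = 0.98 (p = 0.00278, adjusted p = 0.0194; Spearman's rho = 0.94, p = 0.0167, adjusted p = 0.0778) in this exact test. Its correlations with Hbb-bt (r = 0.97, rho = 0.89) and Hba-a2 (r = 0.95, rho = 0.89) had adjusted exact p = 0.0194 for r and 0.0778 for rho. Without KO B and KO E, farthest from the median of Hbb-bs, r was 0.91 with Hba-a1, 0.88 with Hbb-bt and 0.92 with Hba-a2. Hbb-bs also followed Alas2 (r = 0.97, adjusted exact p = 0.0194; rho = 0.83, adjusted exact p = 0.117; r = 0.83 without KO B and KO E). The globin pairs share reads only as far as their sequences are alike, and reads that matched both were not counted.

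The erythroblast genes followed Slc4a1 in the same tumors. For Ermap r was 0.97 (p = 0.00278, adjusted exact p = 0.0194) and rho 0.94 (p = 0.0167, adjusted exact p = 0.0778), with r = 0.93 without KO E and KO F, farthest from the median of Slc4a1. For Klf1 r was 0.91 (adjusted exact p = 0.0389), rho 0.94 (adjusted exact p = 0.0778) and r without both tumors 0.74. Alas2 gave r = 0.88 (adjusted exact p = 0.0417), rho = 0.89 (adjusted exact p = 0.0778) and r = 0.83 without both. Epor gave r = 0.88 (adjusted exact p = 0.0486), rho = 0.77 (adjusted exact p = 0.160) and r = 0.94 without both. The relation of Slc4a1 with Hbb-bs did not pass (r = 0.75, adjusted exact p = 0.127; rho = 0.60, adjusted exact p = 0.308; r = 0.58 without both). Leaving out KO E alone brought r to 0.84 for Klf1 (exact p = 0.0917) and to 0.69 for Alas2 (exact p = 0.217), so both rest in part on that tumor. Ermap kept r between 0.95 and 0.98 whichever KO tumor was left out.

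Other red cell genes with few counts had most of them in KO tumors. These genes had too few counts for the test and were named after their values were seen. Car1, a carbonic anhydrase of the red cell, had 37, 9, 16, 58, 94 and 4 counts in KO and 0, 0, 1, 0 and 2 in WT, with a ratio of pooled counts per scaled library of 52.2 (exact 95% interval 17.6 to 255, counting error only).

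Kel, the Kell blood group protein, had 9, 2, 7, 4, 15 and 1 counts in KO and 0 in each WT tumor, at least 9.10-fold higher in KO against a floor of 3 counts over the WT group. Hemgn, a nuclear protein of haematopoietic precursors, had 38, 14, 9, 7, 54 and 4 counts in KO and 4, 4, 0, 0 and 1 in WT. Rhag, the Rh-associated glycoprotein, had 9, 3, 3, 5, 32 and 1 counts in KO and 0, 0, 3, 0 and 0 in WT. Cldn13, a claudin of erythroid cells, had 9, 4, 8, 5, 20 and 0 counts in KO and 3 in all WT tumors together. KO E held the most counts in each of these 5 genes.

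**Figure D3:**
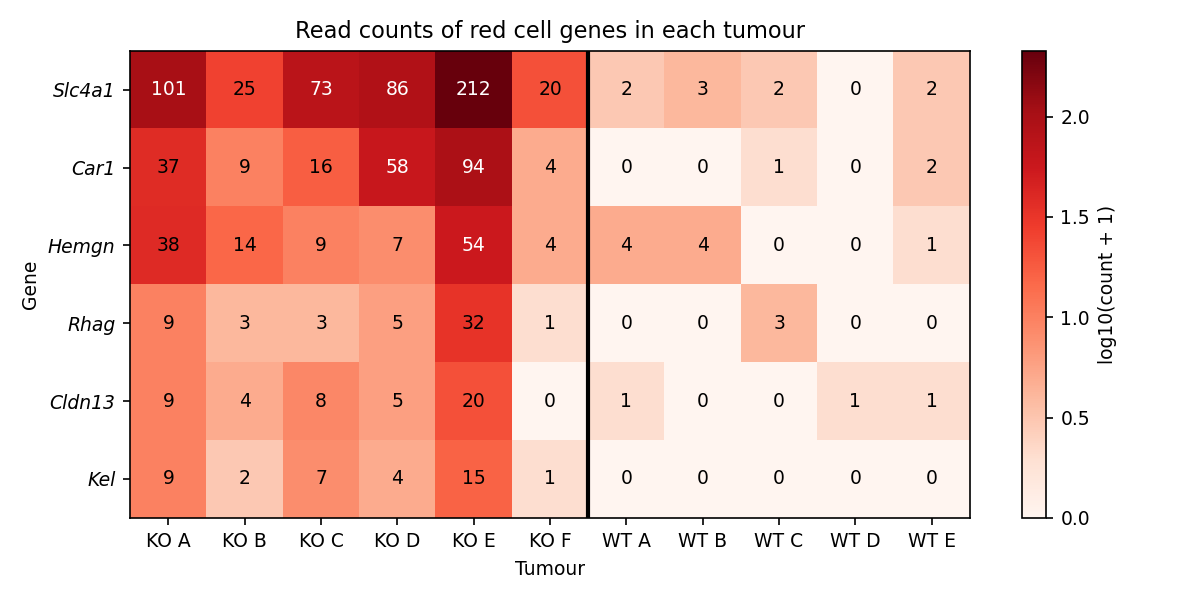
Read counts (numbers in cells, shading on a log10 scale of count + 1) of 6 red cell genes (rows) in the 6 KO and 5 WT tumors (columns). No gene exceeds 4 counts in a WT tumor, and KO E and KO A are the darkest columns while KO F is the palest of the KO columns.

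Counting all listed genes that failed the filter but had any counts, 11 of 11 had a higher mean CPM in KO, and 3 of them, Kel and Car1 included, had KO ranges above WT. Of the 6399 genes of the whole matrix that failed the filter with at least 10 counts in all, 37.1% had a higher mean in KO and 0.641% had KO ranges above WT. The size of the difference varied. Trim58, an erythroid ubiquitin ligase, had 12 counts in KO and 8 in WT, and Epb42, band 4.2 of the membrane, had 52 and 18, with WT E at 9. Hbq1b, a theta globin, had 8 and 2. Rhd, the Rh antigen, had 63 and 6, a wider difference.

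The wider erythroid program held 67 further genes, of which 66 were matched in the matrix, 49 had enough counts to be tested and 6 had 0 counts in every tumor. None of the 49 passed an adjusted p of 0.05 in the edgeR quasi-likelihood test in either direction. An unadjusted p under 0.05 was reached by 7 genes higher and 9 genes lower in KO, beside 8.57% and 15.5% of all tested genes. DESeq2 called 4 higher and 2 lower, beside 3.19% and 4.81% of all genes. KO ranges lay above WT for 2 of the 49 and below for 1, beside 1.59% and 1.98% of all genes, and the median log2 fold change was 0.16.

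The embryonic globins Hbb-y, Hbb-bh1 and Hba-x had 0 counts in all 11 tumors, as had Hbb-bh2, Hbq1a and Epo, the gene for erythropoietin itself. A count of 0 in a library allows up to 0.0883 to 0.250 CPM at 3 counts. Hbq1b was the only gene of that list with any count.

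The listed genes of haem synthesis and mitochondrial iron, Alas2 left out, did not follow Alas2. Of 12 tested genes 0 were higher and 5 were lower in KO at an unadjusted p under 0.05, with a median log2 fold change of -0.41. For this and each erythroid list below, the shares of all tested genes were 8.57% higher and 15.5% lower. Alad, the second enzyme of the pathway, was at 16.0 ± 1.5 CPM in KO and 27.3 ± 9.5 in WT (SD), with a log2 difference of -0.77 ± 0.22 (SE, edgeR adjusted p = 0.0977, DESeq2 adjusted p = 0.0374). In WT A, WT B and WT C, the libraries rich in ribosomal RNA, Alad was at 34.8, 32.6 and 35.2 CPM. In WT D and WT E it was at 18.7 and 15.3 CPM, beside 14.4 to 18.5 CPM in KO. Whether genotype or library gives the difference was not tested. Slc25a38, the mitochondrial glycine carrier, was at -0.61 ± 0.19 (SE, edgeR adjusted p = 0.105, DESeq2 adjusted p = 0.0433), with each KO tumor below each WT tumor. Ppox and Uros, further enzymes of the pathway, had log2 fold changes of -0.48 and -0.58 with edgeR adjusted p of 0.156 and 0.161. Fech, which inserts the iron, was at 53.8 CPM in KO and 48.2 in WT, and Tfrc, the transferrin receptor, at 66.5 and 62.6. Alad, Ppox, Uros and Fech are made in most cell types, whereas Alas2 is particular to the red lineage. Whether this bears on the values was not tested.

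Among 9 tested genes of the red cell membrane and skeleton, 2 were higher and 0 lower at an unadjusted p under 0.05. Sptb, the beta spectrin, was at 2.35 ± 0.91 CPM in KO and 0.615 ± 0.50 in WT (SD), a log2 change of 1.91 ± 0.49 (SE, edgeR adjusted p = 0.0904, DESeq2 adjusted p = 0.00384). Epb41, protein 4.1, was at 65.0 and 42.6 CPM (log2 fold change 0.61 ± 0.26, SE, edgeR adjusted p = 0.184). Xk, Ank1, Add2 and Dmtn, which other cell types also use, had log2 fold changes of 0.45, 0.34, 0.37 and -0.42.

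Of 10 erythroid transcription factors 3 were higher and 1 lower at an unadjusted p under 0.05. Gata1, the master factor of the red lineage, was at 0.885 ± 0.26 CPM in KO and 0.471 ± 0.50 in WT (SD), a log2 change of 1.02 ± 0.56 (SE, edgeR adjusted p = 0.281), and WT B was the highest tumor. Its order within KO hosts differed from that of Slc4a1, with KO A highest and KO E lowest. Nfe2, a globin regulator also used by megakaryocytes and neutrophils, was at 7.76 ± 3.4 and 2.51 ± 0.75 CPM (SD) with separate ranges, a log2 change of 1.63 ± 0.36 (SE, edgeR adjusted p = 0.0786, DESeq2 adjusted p = 0.000413). Bcl11a, a repressor of embryonic globins also used by B cells, had separate ranges and a log2 change of 1.35 ± 0.41 (SE, edgeR adjusted p = 0.105, DESeq2 adjusted p = 0.0117). Lyl1 was at 0.60, Tal1 at 0.49, and Ldb1 at -0.53.

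Of 9 tested late erythroid genes none passed an adjusted p of 0.05 in edgeR, and 1 was higher and 2 were lower at an unadjusted p under 0.05. Beside them stand 8.57% and 15.5% of all tested genes, also for erythropoietin signalling below. Bpgm, which makes 2,3-bisphosphoglycerate, had -0.55 ± 0.17 (SE, edgeR adjusted p = 0.107) and Prdx2, a peroxiredoxin, had -0.96 ± 0.33 (SE, edgeR adjusted p = 0.123). Prdx2 stood at 701, 1340 and 883 CPM in WT A, WT B and WT C and at 385 and 279 CPM in WT D and WT E. Its KO values were 281 to 414 CPM. Car2, Tspo2 and Trim10 had -0.89, 0.55 and -0.61. In erythropoietin signalling 1 of 9 tested genes was higher and 1 lower at an unadjusted p under 0.05, namely Lyn (0.50 ± 0.18, SE, edgeR adjusted p = 0.126) and Socs2 (-0.81 ± 0.29, SE, edgeR adjusted p = 0.126). Kit, Stat5b, Jak2 and Stat5a, its receptor partner and signal carriers, had log2 fold changes of 0.64, 0.42, 0.34 and 0.26. Cish, a target of Stat5, was at 36.1 and 35.6 CPM in KO and WT.

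**Figure D4:**
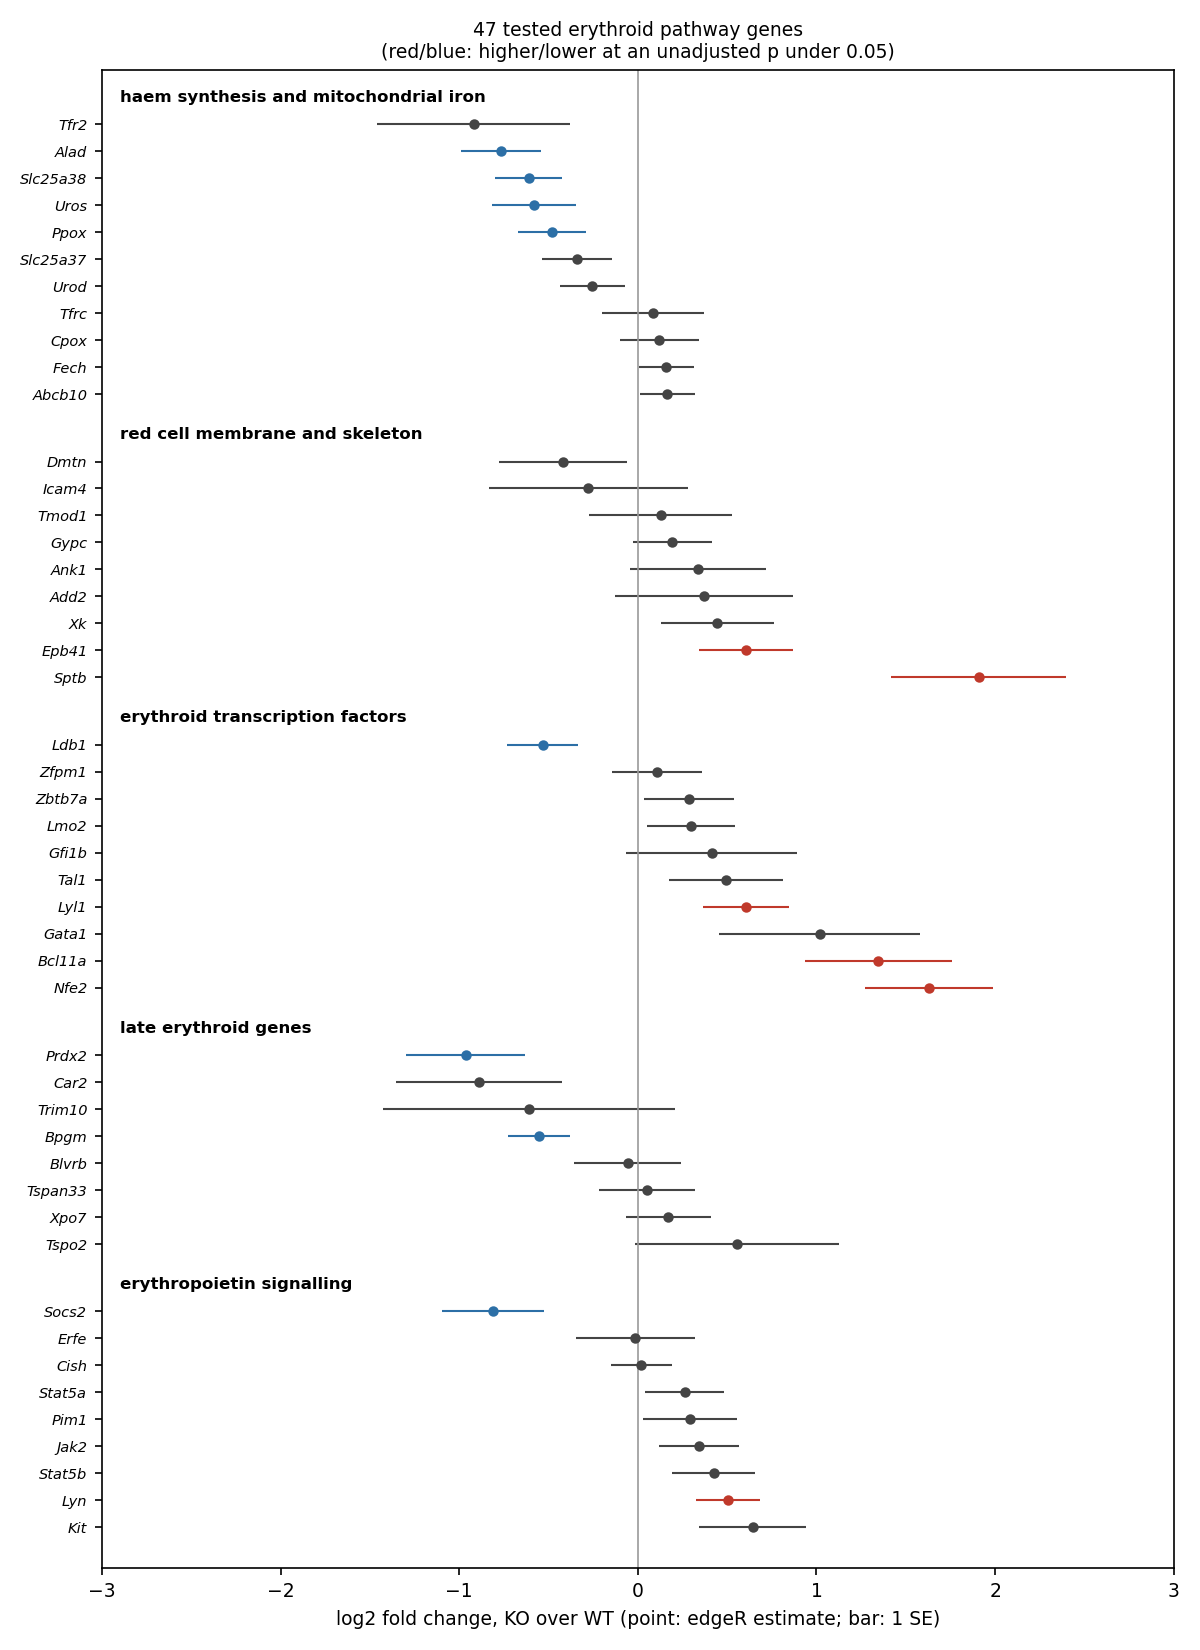
Log2 fold change of KO over WT (horizontal axis, point for the edgeR estimate, bar for 1 SE) of 47 of the 49 tested erythroid pathway genes, grouped by list. Of these 6 lie to the right (red) and 8 to the left (blue) at an unadjusted p under 0.05, with Sptb, Nfe2 and Bcl11a at 1.91, 1.63 and 1.35. Genes of haem synthesis and mitochondrial iron lie mostly left of 0.

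Markers of other blood cells also differed between the genotypes, and their part in the erythroid values was not tested. Granulocyte precursor genes, which are made in marrow before neutrophils mature, were higher in KO at an unadjusted p under 0.05 for 10 of 10, with summed levels of 47.3 to 1621 CPM in KO and 7.63 to 130 CPM in WT. For this and each marker list below, the shares of all tested genes were 8.57% higher and 15.5% lower. Fcnb and Mpo had KO ranges above WT (log2 fold changes of 5.84 ± 0.91 and 5.59 ± 0.98, SE, edgeR adjusted p = 0.0605 and 0.0663), and Ltf and Elane were at 4.43 and 4.94. No gene of this or any other marker list passed an adjusted p of 0.05 in edgeR, while 9 of these 10 did in DESeq2, beside 3.19% of all genes. Elane and Ms4a3 had 0 counts in some WT tumors. Mature neutrophil genes were higher for 5 of 7 at an unadjusted p under 0.05, and the 4 with the smallest p were Mmp8, S100a9, Mmp9 and S100a8 (log2 fold changes of 3.11, 2.20, 0.95 and 1.71), with sums of 309 to 2368 CPM in KO and 187 to 1064 in WT.

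B cell genes were higher for 9 of 9 at an unadjusted p under 0.05, with sums of 59.7 to 147 CPM in KO and 15.3 to 56.9 in WT. Cd79a, Pax5, Cd79b and Ms4a1 had log2 fold changes of 2.62, 2.47, 1.92 and 2.70, and all 9 passed in DESeq2, beside 3.19% of all genes. By the same unadjusted threshold, which is used for the lists that follow, red pulp macrophage genes were higher for 3 of 6 (Cd163 at 1.51, Treml4 at 0.94, Vcam1 at 0.90), with Spic, the factor that defines these cells, at 3.19 and 2.58 CPM and sums of 570 to 1384 in KO and 286 to 740 in WT. Platelet and megakaryocyte genes were higher for 0 and lower for 2 of 5 tested (Clec1b at -1.54, Pf4 at -1.41), and Gp1bb was at 0 in every tumor. Itga2b and Itgb3 were at 0.64 and 0.41, and the platelet sums were 59.4 to 138 CPM in KO and 49.9 to 222 in WT.

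Endothelial genes, which line the vessels, were higher for 1 of 10 (Erg at 1.06) and lower for 1 (Egfl7 at -1.03), with Vwf and Pecam1 at 0.85 and 0.38 and sums of 319 to 414 CPM in KO and 193 to 422 in WT. These counts lie near the shares of all tested genes, 8.57% higher and 15.5% lower. Carcinoma keratins and adhesion genes were higher for 0 and lower for 3 of 7 (Krt19, Epcam and Krt18 at -0.92, -1.62 and -0.54, with Krt8 at -0.57), at 2696 to 5609 CPM in KO and 3103 to 9408 in WT. Fibroblast genes passed for 0 of 6, with Pdgfra, Lum, Pdgfrb and Col1a1 at 0.60, 0.51, 0.39 and 0.41 and sums of 2716 to 5858 CPM in KO and 1532 to 6152 in WT. Acinar genes passed for 0 of 2, Prss2 at -2.19 and Ctrb1 at -1.55, and Cpa1, Pnlip, Amy2a5 and Cel had 0 counts in some tumors.

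Within KO tumors the orders of Slc4a1 and of the granulocyte precursor sums differed only in the place of KO E. Slc4a1 fell from KO E to KO A, KO D, KO C, KO B and KO F, while the granulocyte precursor sums were 1621, 1249, 1106, 678, 467 and 47.3 CPM in KO A, KO D, KO C, KO B, KO E and KO F. The relation of Slc4a1 with that sum was not detectable over the 6 tumors (r = 0.45, rho = 0.43, adjusted exact p = 0.444 and 0.489; r = 0.96 without KO E and KO F). Without KO E alone r was 0.77 (unadjusted exact p = 0.00833), and without KO F alone it was -0.24 (unadjusted exact p = 0.742). The sign of the relation thus turned on a single tumor. KO F combined the lowest Slc4a1 and the lowest granulocyte precursor sum with a globin sum of 66.8 CPM, in the middle of the KO range.

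Slc4a1 showed r = -0.02 with platelet genes (rho = -0.09, adjusted exact p = 0.982 and 0.919; r = 0.23 without KO E and KO F) and r = -0.01 with B cell genes (rho = 0.09, adjusted exact p = 0.982 and 0.919; r = 0.89 without both). With red pulp macrophage genes r was -0.61 (rho = -0.66, adjusted exact p = 0.263 and 0.245; r = -0.89 without both). It was -0.93 without KO E alone (unadjusted exact p = 0.00833) and -0.37 without KO F alone (unadjusted exact p = 0.542). As Vcam1 made up most of that sum, the relation mainly describes Vcam1. Endothelial genes gave r = -0.53 (rho = -0.77, adjusted exact p = 0.377 and 0.160; r = 0.16 without both). A relation that did not pass in 6 tumors is not shown to be absent.

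**Figure D5:**
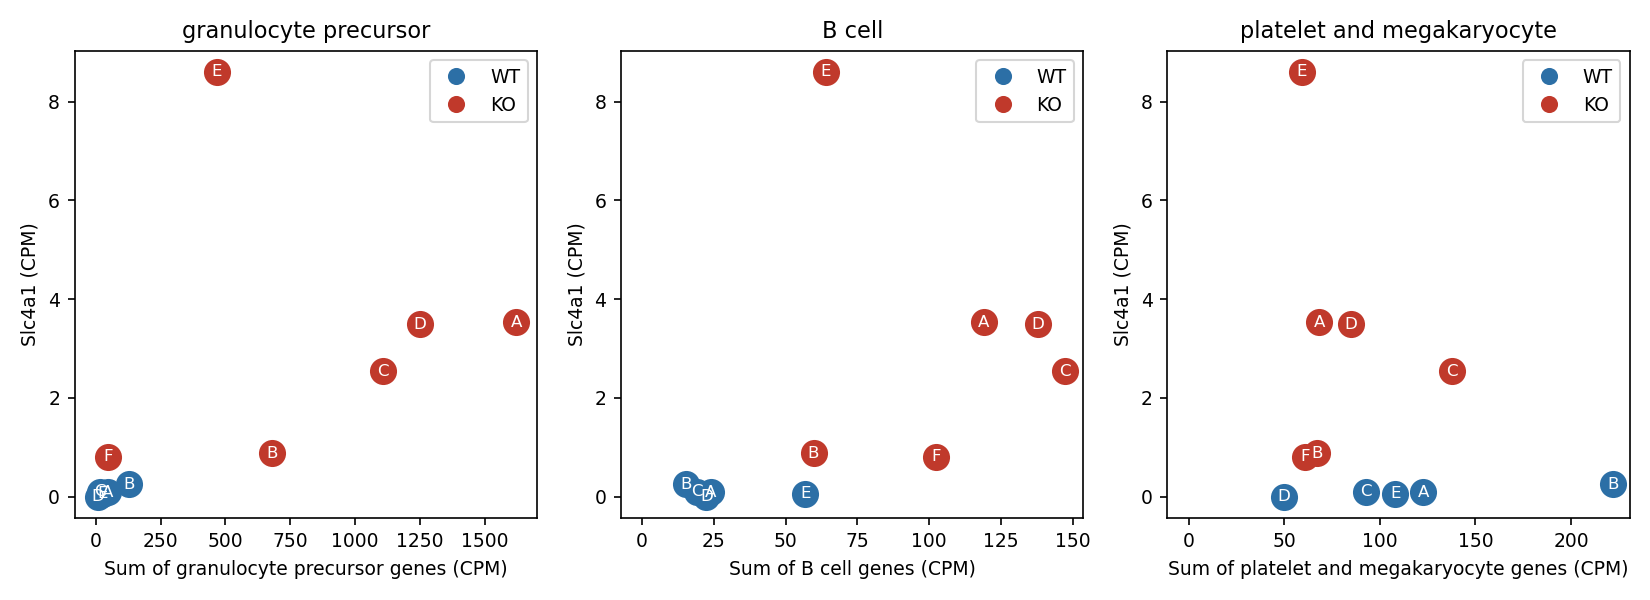
Slc4a1 (vertical axis, CPM) against the summed CPM of granulocyte precursor, B cell and platelet and megakaryocyte genes (horizontal axes), with 1 lettered point for each WT (blue) or KO (red) tumor. KO E has the highest Slc4a1 at 467 CPM of granulocyte precursor genes, whereas KO A has 1621 CPM of them with Slc4a1 at 3.53 CPM.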

How the data were processed

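RNA came from pieces of 11 orthotopic tumors (6 KO, 5 WT). Per the study's methods and the processing notes in the labels, the authors trimmed paired-end stranded reads with Trimmomatic, aligned them to mm10 with HISAT2 2.1.0, kept uniquely aligned reads of mapping quality above 10 and counted exons per gene with HTSeq 0.11.2, after bcl2fastq 2.19. The deposited raw counts were used as they stand. The second deposited table holds signal values, counts that the authors divided by a size factor for each sample, and served only as an alternative for the globin ratio. Reads kept by unique alignment understate genes with near-identical copies.

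Gene identifiers were matched to GENCODE M21 symbols. Genes passing filterByExpr (16536) were fitted with edgeR's quasi-likelihood test on TMM-scaled counts with genotype as the only term and Benjamini-Hochberg adjustment. CPM were counts scaled to a TMM-scaled library of 1000000, and correlations used log2(CPM + 1). Nothing says that the tumors were other than 1 per host, and p-values measure the spread between them. Genes were sorted into 9 members, 6 lists of erythroid genes and 11 marker lists. The members, the lists and the tests were chosen with earlier results of these data known. Named were all members, up to 6 genes of each erythroid list and 4 of each marker list by smallest p, Gata1, markers at 0, and the 5 genes most like Slc4a1 and Hbb-bs. Some genes that this rule names are not reported here. Replicate letters were not a pairing in the labels. The tools were edgeR 4.0.16, DESeq2 1.42.0, R 4.3.3 and SciPy 1.17.1, and the scripts were tested on simulated data. Alternatives were another test, normalization, filters, pseudocount, a ribosomal RNA covariate, a replicate block and leaving out tumors. Motif searches used RefSeq promoters on GRCm38.p6.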

Additional observations from a re-analysis of the deposited data

Results flagged for a closer look

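In 54 groups of 5 or 6 tumors, Dixon's test at the 95% level marked 9 values as distant from their group. About 2.7 would be marked if the groups were independent and normally distributed. The groups share the same tumors, so the count is not a test of an excess. KO E was high for Hbb-bt (15.2 CPM, other KO tumors 5.85 to 9.31) and for Slc4a1 (8.60 CPM, others 0.805 to 3.53). KO E was also high in summed acinar genes (589 CPM, others 0.417 to 5.47), as was WT E (1645 CPM, others 1.02 to 153). WT E stood above the other WT tumors in B cell genes (56.9 CPM, others 15.3 to 23.9). WT B stood above them in mature neutrophil genes (1064 CPM, others 187 to 333). KO C was high in platelet and megakaryocyte genes (138 CPM, others 59.4 to 84.9) and in mast cell genes (105 CPM, others 36.3 to 60.2). WT C was the only WT tumor with counts in the embryonic and minor globin list (0.0982 CPM, from 2 counts of Hbq1b).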

How the results depend on the processing

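Alas2, Slc4a1 and Ermap were higher in KO in every setting in which they were fitted, with log2 fold changes of 1.75 to 2.70, 4.48 to 6.47 and 1.03 to 1.66. Hbb-bs and Hbb-bt were higher in all settings, at 0.39 to 2.72 and 0.49 to 2.56. The count of genes higher in KO was 3 in edgeR, 593 in DESeq2, 39 without a filter, 0 with at least 10 counts in every sample, 8 with the replicate block and 0 to 608 leaving out 1 tumor in turn, the most without WT E (608) and WT D (203). The count lower in KO was 0 in edgeR (2555 at an unadjusted p under 0.05), 896 in DESeq2, 6 without a filter, 1 with the ribosomal RNA covariate, 1 with the replicate block, 3 without WT A, B and C and 0 to 1248 leaving out 1 tumor in turn, again the most without WT E. Erythroid pathway genes called higher were 0 in edgeR, 8 in DESeq2 over all fitted genes, 1 without a filter (Car1) and 0 to 5 leaving out 1 tumor, with 4 without WT D and 5 without WT E. The cause of these shifts was not tested.

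The globin median of 0.79 was 2.60 without WT A, B and C and 0.53 to 1.28 leaving out 1 tumor in turn. The erythroblast median of 1.76 was -0.54 with at least 10 counts in every sample, where Epor alone was left, 1.03 without KO E, WT A and WT E (chosen after seeing the data) and 1.38 to 1.86 leaving out 1 tumor in turn. Klf1 passed the filter in some of these settings, and over the same 4 genes the values were 1.39 and 1.52 to 2.03. Epor was at 0.58 without WT A, B and C. The log2 ratio of globin to erythroblast genes changed sign within its spread, from -0.29 to 0.61 over settings. Deviations of same-lettered tumors correlated weakly, at 0.16, 0.02, -0.17, 0.13 and 0.06 for A to E. The labels state no pairing by letter, and these correlations cannot show that none exists. The replicate block of letters left the globin and erythroblast medians at 1.23 and 1.89. Counts of 0 to 4 in WT tumors limit what can be said of the WT level of Slc4a1 and the sparse red cell genes.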

Other observations

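Genes of stem and progenitor cells and of mast cells were also higher in part. Myb, a factor of immature blood cells, was at 2.76 to 7.84 CPM in KO and 0.250 to 1.60 CPM in WT tumors, a log2 change of 2.12 ± 0.44 (SE, edgeR adjusted p = 0.0764), and Meis1, another such factor, had 0.97 ± 0.21 (SE, edgeR adjusted p = 0.0786). Kit and Flt3 were at 0.64 and 0.63, and Cd34 measured 48.4 and 50.2 CPM. Of the 6 tested genes of that list 2 had an unadjusted p under 0.05, and the summed levels were 88.3 to 116 CPM in KO and 64.7 to 102 CPM in WT. Mast cell genes had 4 of 8 higher at an unadjusted p under 0.05 (Cpa3 at 1.34, Hdc at 1.17, Tpsb2 at 1.17 and Mcpt4 at 0.88), with sums of 36.3 to 105 CPM in KO and 10.5 to 53.8 CPM in WT. At this threshold, used for both lists, 8.57% of all tested genes were higher.

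After subtracting each genotype's mean of log2(CPM + 1), the genes outside the chosen set whose values over the 11 tumors were most like Slc4a1, among 14889 with a mean of at least 1 CPM, were A930004D18Rik, Ptar1, Ccdc68, Ddx19a and Rbm15b (Pearson's r = 0.85, 0.84, 0.81, 0.80 and 0.80). Of the chosen genes Ermap was at 0.84, Klf1 at 0.82, Alas2 at 0.72 and Hbb-bs at 0.32. Those most like Hbb-bs were Lsm12, Zfp771, Tnfsf9, Mob4 and Hist1h4h (0.94, 0.94, 0.93, 0.93 and 0.93), beside 0.97 for Hba-a1 and Hbb-bt and 0.96 for Hba-a2. These are descriptions over tumors whose libraries differ in depth and ribosomal RNA content, and the part of those differences in the likeness was not tested.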
